A study of Homo sapiens with 5 samples.

Results

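ATF3 binding at 8 genes of the KLF family of transcription factors was examined before and after camptothecin in HCT116, a human colon cancer cell line. The members were KLF2, KLF3, KLF4, KLF5, KLF6, KLF7, KLF9 and KLF10, which are 8 of the 20162 protein-coding genes of the annotation. For each of them, every peak whose centre lay between 20 kb upstream of the transcription start site (TSS) and the end of the gene was taken from the 5 deposited peak lists. These windows held 21 of the 33966 peaks of ATF3 before treatment and 31 of the 70702 peaks after it. A peak was called a promoter peak within 2 kb of the TSS and a distal peak elsewhere in the window.

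KLF proteins bind GC-rich and CACCC sequences through a conserved array of zinc fingers at the C terminus, and differ in the cofactors that their N terminus recruits. KLF3 binds the corepressor CtBP, KLF9 and KLF10 bind the corepressor Sin3A, and KLF2, KLF4, KLF5, KLF6 and KLF7 are known mainly as activators. In the gut epithelium, KLF5 marks proliferating crypt cells and KLF4 marks differentiating cells. ATF3 is a stress-induced bZIP factor that binds, alone or with JUN proteins, the ATF/CRE core TGACGTCA and the AP-1 core TGACTCA.

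The series held 5 ChIP-seq libraries, a single one for each condition. An ATF3 antibody was used on ATF3-WT cells in the solvent DMSO (ATF3-Ctrl), on ATF3-WT cells exposed for 4 h to 1.5 uM of the topoisomerase I inhibitor camptothecin (ATF3-CPT), and on ATF3-KO cells in DMSO (ATF3-KO). A p53 antibody was used on p53-WT cells exposed to the same dose of camptothecin (p53-CPT) and on p53-KO cells in DMSO (p53-KO), and this pair is unlike in both genotype and treatment. Camptothecin is written CPT below. The ATF3-KO cells were made by AAV-mediated homologous recombination, and all cells were cross-linked with DSG and formaldehyde. The peak lists hold no expression values, so neither the knockouts nor the cell line could be checked by their transcripts. The ATF3 libraries held 12820520 to 15457013 tags, and the p53 libraries held 3169743 (p53-CPT) and 1984941 (p53-KO).

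The level of a peak is given as its normalized tag count, scaled to a library of 10000000 tags. A single tag adds 0.772 to this level in ATF3-Ctrl and 0.647 in ATF3-CPT, and the limit for listing a peak was 9 tags in both. Intervals in square brackets are exact 95% Poisson intervals and cover counting error only, as each condition has 1 library. The tags carry no molecular identifiers, so that duplicates could not be told apart and the intervals can be too narrow. The level averages over all cells, so that more cells with ATF3 bound and more ATF3 bound per cell cannot be told apart. A site without a listed peak has no value, which is not a value of 0.

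ATF3 peaks were listed at 4 of the 8 KLF promoters before CPT (all genes, 35.7%) and at 6 of 8 after CPT (50.2%). Promoter peaks numbered 7 in ATF3-Ctrl, at KLF4, KLF6, KLF9 and KLF10, and 8 in ATF3-CPT, at these 4 genes and at KLF2 and KLF5. Distal peaks numbered 14 before and 23 after CPT, at every member except KLF2 in both libraries (all genes with a distal peak, 49.4% before and 69.5% after). The whole ATF3-CPT list was longer than that of ATF3-Ctrl, and when it was shortened to the same length by score, ATF3-CPT had 6 promoter peaks, in 5 genes, and 14 distal peaks, so that neither count was then higher than in ATF3-Ctrl. The highest promoter level was that of KLF6 (55.6 before, 95.7 after CPT), and the highest distal level was that of KLF3 (68.0 before, 80.9 after). In the lists of ATF3-KO, p53-CPT and p53-KO, 0 of the 8 windows held a peak. Over all protein-coding genes, 11.4%, 21.8% and 17.4% of the windows did.

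The sequences below are those of the sites on which the description turns, namely the highest promoter and distal peaks, the promoter peak at KLF2 listed only after CPT, 3 of the 4 distal sites that were at least 2-fold higher after CPT, and an adjoining pair of peaks upstream of KLF9. Capitals mark an AP-1 core (TGACTCA or its complement TGAGTCA), the shorter TGACG core (or CGTCA), or, where neither was present, a word with 1 mismatch to TGACGTCA. The upstream ATF3-Ctrl peak of KLF9 held none of them. All sequences are of the reference genome.
KLF6 promoter, ATF3-CPT peak, chr10:3827513-3827637, GRCh37, + strand: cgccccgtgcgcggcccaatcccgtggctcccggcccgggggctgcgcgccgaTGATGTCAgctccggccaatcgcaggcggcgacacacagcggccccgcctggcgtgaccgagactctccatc
KLF2 promoter, ATF3-CPT peak, chr19:16435279-16435403, GRCh37, + strand: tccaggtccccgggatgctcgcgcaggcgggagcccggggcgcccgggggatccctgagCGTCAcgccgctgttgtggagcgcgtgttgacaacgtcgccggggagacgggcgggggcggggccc
KLF3 intron 1, ATF3-CPT peak, chr4:38668854-38668978, GRCh37, + strand: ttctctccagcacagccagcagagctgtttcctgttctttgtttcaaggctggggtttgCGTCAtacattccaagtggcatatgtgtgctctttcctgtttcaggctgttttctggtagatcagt
KLF4 upstream, ATF3-CPT peak, chr9:110267227-110267351, GRCh37, + strand: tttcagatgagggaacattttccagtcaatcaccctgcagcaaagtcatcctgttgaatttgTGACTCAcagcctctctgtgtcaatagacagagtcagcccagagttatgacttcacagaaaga
KLF6 intron 1, ATF3-CPT peak, chr10:3825223-3825347, GRCh37, + strand: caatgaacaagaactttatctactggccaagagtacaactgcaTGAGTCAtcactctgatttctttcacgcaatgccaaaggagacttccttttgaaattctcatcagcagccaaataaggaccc
KLF7 intron 2, ATF3-CPT peak, chr2:207986695-207986819, GRCh37, + strand: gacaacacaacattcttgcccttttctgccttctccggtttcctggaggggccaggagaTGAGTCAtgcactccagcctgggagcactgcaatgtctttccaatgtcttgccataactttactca
KLF9 upstream, ATF3-Ctrl peak, chr9:73035076-73035202, GRCh37, + strand: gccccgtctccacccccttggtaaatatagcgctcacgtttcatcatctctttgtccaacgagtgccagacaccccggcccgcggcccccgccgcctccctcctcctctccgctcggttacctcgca
KLF9 upstream, ATF3-CPT peak, chr9:73034945-73035069, GRCh37, + strand: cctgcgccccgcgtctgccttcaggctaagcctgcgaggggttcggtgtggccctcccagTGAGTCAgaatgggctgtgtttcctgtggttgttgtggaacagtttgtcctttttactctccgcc

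The exact ATF/CRE core was in 0 of the 21 ATF3-Ctrl peaks and 0 of the 31 ATF3-CPT peaks of the KLF genes, a core that over all gene windows was in 3.97% of promoter and 0.848% of distal ATF3-CPT peaks. The highest promoter peak, that of KLF6, held TGATGTCA near its centre instead, and the same word was in a promoter peak of KLF9. With 1 mismatch allowed, 3 of 8 promoter and 5 of 23 distal ATF3-CPT peaks held the core, against 15.9% and 14.0% over all gene windows. The AP-1 core, searched on both strands, was in 2 of 8 promoter ATF3-CPT peaks (all gene windows, 14.0%) and in 8 of 23 distal ones (45.3%). Before CPT it was in 1 of 7 promoter peaks (9.14%) and in 4 of 14 distal peaks (37.5%). Sequence of the same length taken 1000 bp to the side held an AP-1 core for 1 of the 23 distal ATF3-CPT peaks, and for 2.08% over all gene windows. The TGACG core, which is also part of TGACGTCA, was in 2 of 8 promoter and 1 of 23 distal ATF3-CPT peaks (30.4% and 10.0% over all gene windows). A p53 motif with at most 3 mismatches was in 0 of the 31 ATF3-CPT peaks, and in 2.40% of those over all gene windows. These matches describe letters in the peaks and do not show which protein was bound.

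**Figure D1:**
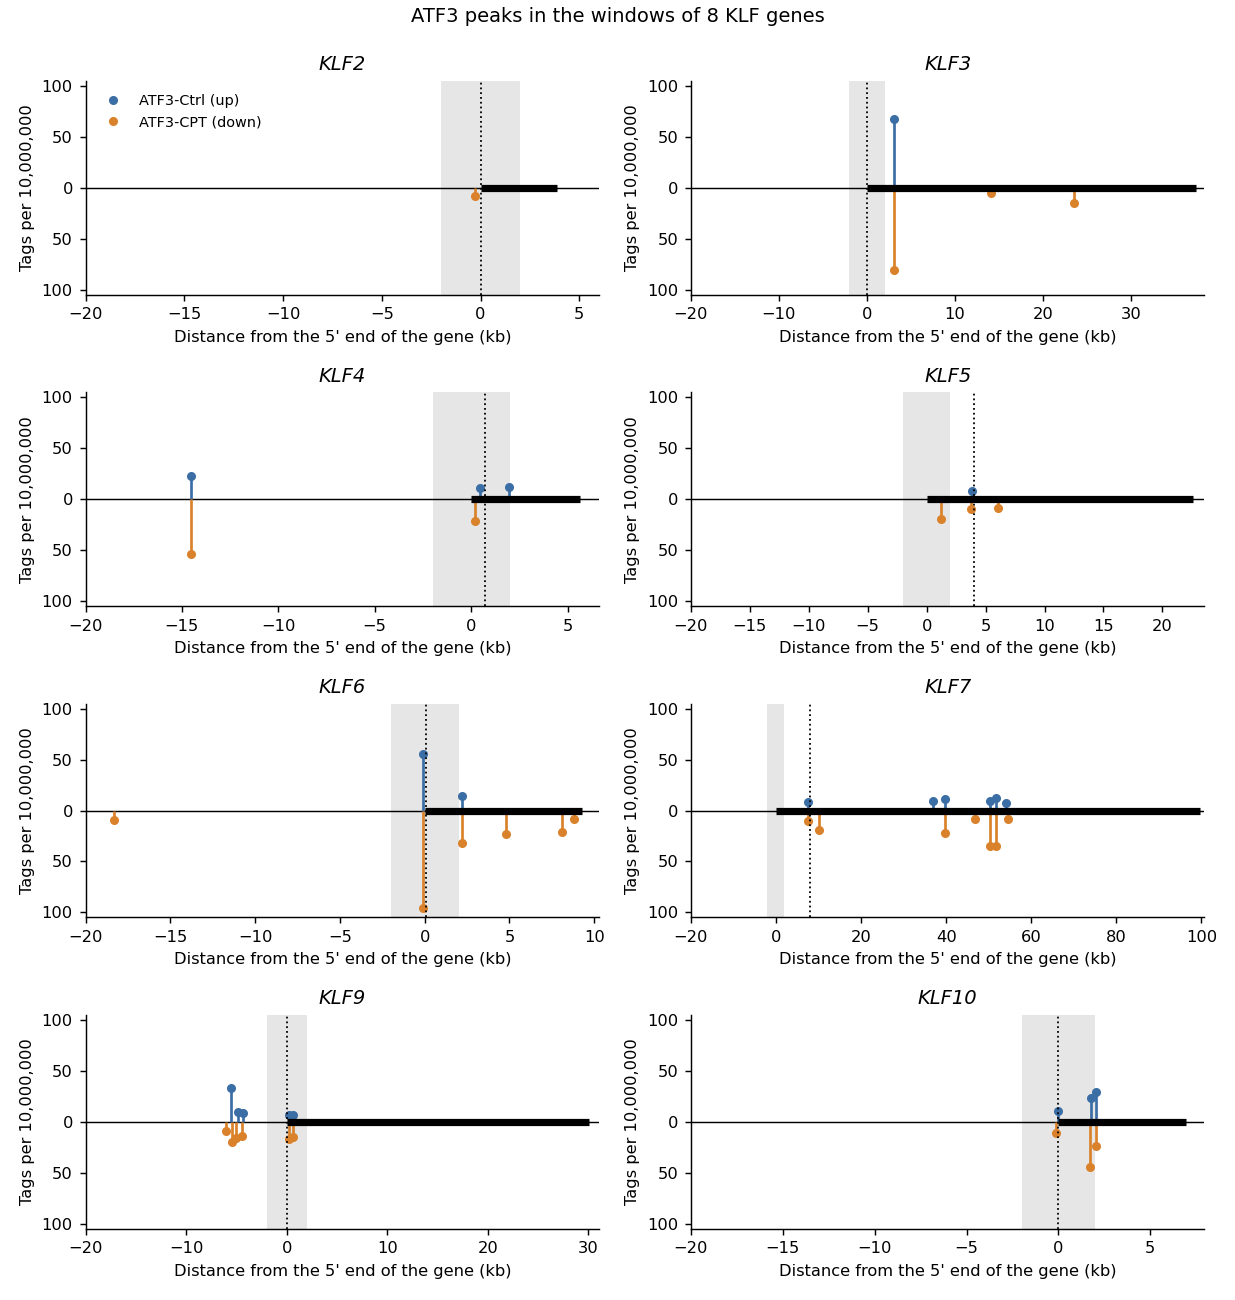
ATF3 peaks along the 8 KLF genes, with the distance of the peak centre from the 5′ end of the gene (kb) on the x axis and the normalized tag count (tags per 10000000) on the y axis, upwards for ATF3-Ctrl and downwards for ATF3-CPT. Thick bars are the genes, grey bands the 2 kb on either side of the 5′ end and dotted lines the TSS of the canonical transcript; KLF6 has its highest peak at the promoter, KLF3 in intron 1 and KLF4 upstream, and KLF2 has 1 low peak.

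KLF3, the CtBP-binding repressor (chromosome 4, 38665818 to 38703138, + strand), had 0 promoter peaks in either library. Its main peak lay in intron 1, 3100 bp downstream of the TSS, and was the highest distal peak among the KLF genes in both libraries. The level was 68.0 [54.5 to 83.7] in ATF3-Ctrl and 80.9 [67.3 to 96.4] in ATF3-CPT. The intervals overlapped, and the ratio was 1.19 (interval 0.899 to 1.58, conditional exact). After CPT the gene had 2 further peaks, in intron 1 at 5.2 [2.23 to 10.2] and in intron 2 at 14.9 [9.43 to 22.3]. The peak in intron 2 held an AP-1 core near its centre, and the main peak, whose TGACG core lay 1 bp from its centre, held none.

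KLF2, best known from quiescent endothelial cells and T cells (chromosome 19, 16435637 to 16439496, + strand), had 0 peaks in its window before CPT. After CPT a single peak of 8.4 [4.48 to 14.4] was listed at -296 bp from the TSS. This level, from 13 tags, was the lowest of the promoter peaks of ATF3-CPT and was close to the level of the 9-tag limit of ATF3-Ctrl (6.95). It was the only member without a distal peak in either library.

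KLF4, a factor of epithelial differentiation and of reprogramming (chromosome 9, 110247133 to 110252763, - strand), had its strongest site upstream, at -14534 bp from the 5′ end of the gene. The level there was 23.2 [15.6 to 33.1] in ATF3-Ctrl and 53.7 [42.8 to 66.6] in ATF3-CPT, a ratio of 2.32 (1.51 to 3.65). The intervals of the levels did not overlap, and the peak held an AP-1 core 3 bp from its centre. Promoter peaks of KLF4 were at other positions before than after CPT. ATF3-Ctrl had a peak of 10.8 [5.91 to 18.1] at 474 bp and a peak of 11.6 [6.48 to 19.1] at 1973 bp, the latter in intron 2 and just inside the 2 kb limit. ATF3-CPT had a peak of 21.3 [14.7 to 30.0] at 216 bp, which held an AP-1 core, and whose centre was 258 bp from that of the nearer ATF3-Ctrl peak. The TSS of the canonical transcript of KLF4 lies 713 bp inside the gene, and the 3 peaks were also within 2 kb of it.

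KLF5, the factor of proliferating crypt cells (chromosome 13, 73629114 to 73651679, + strand), had 3 sites of low or moderate level, and which of them counts as a promoter site turned on the TSS used. The 5′ end of the gene lies 4029 bp upstream of the TSS of the canonical transcript. A peak of 19.4 [13.1 to 27.7] at 1222 bp from the 5′ end was listed only after CPT, and was at -2807 bp from the canonical TSS. A site at 3845 bp from the 5′ end had 7.7 [3.70 to 14.2] before and 9.7 [5.43 to 16.0] after CPT. This site, whose ratio was 1.26 (0.528 to 3.13), was at -184 bp from the canonical TSS. Another peak of 8.4, in intron 1, was listed only after CPT and lay 2011 bp from the canonical TSS, just outside the promoter limit.

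KLF6, a broadly expressed member that responds early to injury (chromosome 10, 3818188 to 3827473, - strand), had the highest promoter peak of the KLF genes in both libraries. The peak was at -95 bp from the TSS, with 55.6 [43.5 to 70.0] in ATF3-Ctrl and 95.7 [81.0 to 112.5] in ATF3-CPT. The intervals did not overlap, and the ratio was 1.72 (1.29 to 2.32), below the 2-fold limit used for a call. These levels can include tags that share a position. By the score, which counts at most 1 tag per position, the peak had 62 and 101, and the ratio scaled to library tags was only 1.365. The score is not the level with shared positions removed, as it was above the tags at some sites. A KLF9 promoter site had 23 tags and a score of 26 in ATF3-CPT. How far shared positions account for the lower ratio was not tested. In intron 1, 2198 bp from the TSS, the level was 14.7 [8.84 to 22.9] before and 32.3 [24.0 to 42.7] after CPT. That ratio was 2.20 (1.28 to 3.96), and the peak held an AP-1 core. The other 4 sites were listed only after CPT. They were a peak of 22.6 in intron 2, peaks of 21.3 and 7.8 in the 3′ UTR, and a peak of 9.7 at -18293 bp.

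KLF7, which is best known from developing neurons (chromosome 2, 207938861 to 208038580, - strand), has the longest window, of 119.7 kb, and had 9 distal sites and 0 promoter sites when the 5′ end of the gene was used. A pair of sites in intron 2 had the largest ratios of all shared sites of the KLF genes. About 50.2 kb from the 5′ end, the level was 9.3 [4.79 to 16.2] before and 34.9 [26.2 to 45.6] after CPT, a ratio of 3.77 (1.99 to 7.74). At 51837 bp, inside the lncRNA gene KLF7-IT1, it was 12.4 [7.06 to 20.1] and 34.9 [26.2 to 45.6], a ratio of 2.83 (1.59 to 5.29). Both peaks held an AP-1 core, in the latter at the very centre of the peak. A site in intron 1 had 11.6 [6.48 to 19.1] and 22.0 [15.2 to 30.7], a ratio of 1.90 (1.01 to 3.75) whose lower bound was barely above 1. A site at 7642 bp had 8.5 and 10.4, and its ratio of 1.22 (0.531 to 2.90) did not differ from 1 beyond counting error. It lay -266 bp from the canonical TSS of KLF7, which is 7908 bp inside the gene, and inside the lncRNA gene MYOSLID. The remaining 5 sites were listed in 1 library only. Their levels were 9.3 and 7.0 in ATF3-Ctrl and 7.8, 8.4 and 19.4 in ATF3-CPT.

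KLF9, a Sin3A-binding member induced by glucocorticoids and thyroid hormone (chromosome 9, 72999520 to 73029573, - strand), had 2 promoter sites in both libraries, both in the 5′ UTR. At 250 bp from the TSS the level was 7.0 [3.18 to 13.2] in ATF3-Ctrl and 16.8 [11.0 to 24.7] in ATF3-CPT. The ratio was 2.42 (1.10 to 5.87), the largest of the shared promoter sites. At 671 bp the level was 7.0 [3.18 to 13.2] before and 14.9 [9.43 to 22.3] after CPT, with a ratio of 2.14 (0.954 to 5.26) that spanned 1. Both ratios rest on 9 tags in ATF3-Ctrl, and the intervals of the levels overlapped at both sites.

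Upstream of KLF9, ATF3-Ctrl and ATF3-CPT peaks lay beside each other without sharing a base. The ATF3-Ctrl peak of 33.2 [24.0 to 44.7] at -5566 bp was, after that of KLF3, the highest distal peak of the KLF genes before CPT. The nearest ATF3-CPT peak, of 20.1 [13.6 to 28.5] at -5434 bp, was separated from it by 6 bp, with the centres 132 bp apart. The ATF3-CPT peak held an AP-1 core 1 bp from its centre, and the ATF3-Ctrl peak held no core, as the printed sequences show. In the same region, an ATF3-CPT peak of 15.5 at -5006 bp lay 24 bp from an ATF3-Ctrl peak of 10.0 at -4856 bp. By the rule of 1 shared base, these 4 peaks count as sites of 1 library each. A further peak of 9.1 at -5985 bp was listed only after CPT. A shared site at -4342 bp had 8.5 and 14.2, a ratio of 1.68 (0.779 to 3.83).

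KLF10, the TGF-beta-inducible early gene (chromosome 8, 103661012 to 103667953, - strand), had its main sites in intron 1. At 1755 bp from the TSS the level was 23.2 [15.6 to 33.1] in ATF3-Ctrl and 44.0 [34.2 to 55.8] in ATF3-CPT, a ratio of 1.90 (1.22 to 3.02), and the peak held an AP-1 core. At 2058 bp it was 29.3 [20.8 to 40.3] before and 23.9 [16.9 to 33.0] after CPT, a ratio of 0.816 (0.504 to 1.32). This was the only shared site with a ratio below 1, and its interval spanned 1. The 2 kb limit runs between these neighbours, so that the first is a promoter and the other a distal site. Around the TSS an ATF3-Ctrl peak of 10.8 at -7 bp and an ATF3-CPT peak of 11.0 at -147 bp were 14 bp apart, and their levels differed by less than their counting error.

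**Figure D2:**
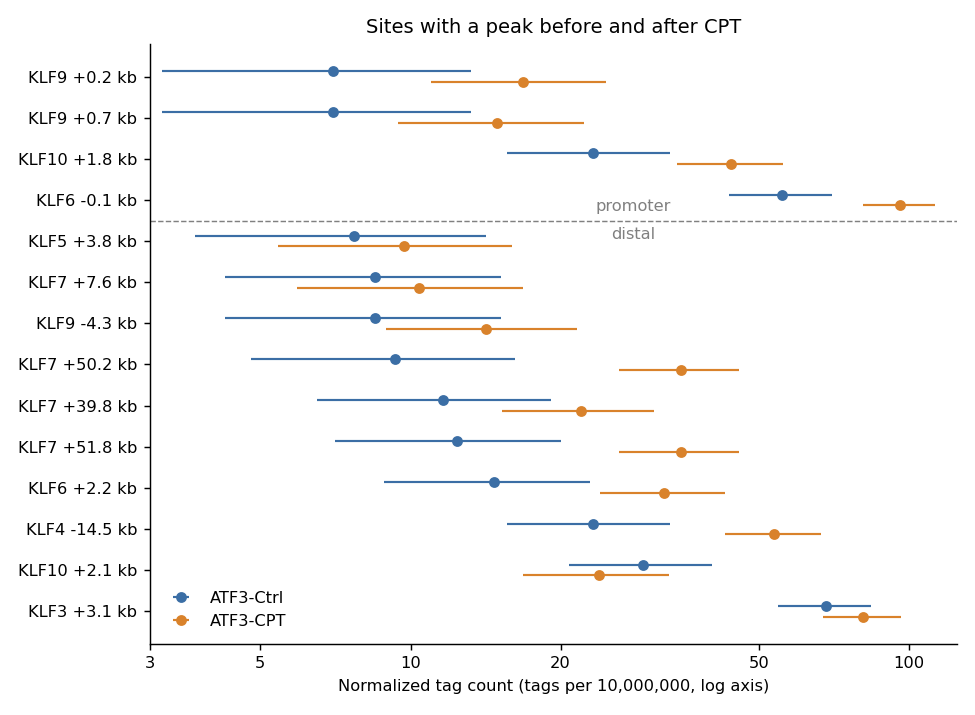
Normalized tag counts (tags per 10000000, log axis) at the 14 sites of the KLF genes with a peak in both ATF3 libraries, with exact 95% Poisson intervals, in ATF3-Ctrl and ATF3-CPT (1 library each). Sites are named by the gene and the distance from its 5′ end; 13 of the 14 points of ATF3-CPT lie to the right of those of ATF3-Ctrl, and the distal site of KLF10 lies to the left.

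Over the 38 sites of the KLF genes, 14 were shared, 17 were listed only in ATF3-CPT and 7 only in ATF3-Ctrl. Among promoter peaks, 4 of the 8 in ATF3-CPT had no overlapping ATF3-Ctrl peak, where the share over all gene windows was 50.3%. For distal peaks this was so for 13 of 23, against 64.2% over all gene windows. In the other direction, 3 of 7 promoter peaks of ATF3-Ctrl had no overlapping ATF3-CPT peak (all gene windows, 19.0%), and 4 of 14 distal peaks had none (19.3%). Of the 7 sites listed only in ATF3-Ctrl, 3 had an ATF3-CPT peak centred within 200 bp. They were 2 upstream peaks of KLF9 and the peak at the TSS of KLF10. Of the 17 sites listed only in ATF3-CPT, 8 had at least 2 times the level of the 9-tag limit of ATF3-Ctrl. They lay at KLF3, KLF4, KLF5, KLF6, KLF7 and KLF9, with 14.9 to 22.6, and the other 9 were closer to that limit, so that a difference between the libraries was not detectable there at this depth. Of the 17, 3 had an ATF3-Ctrl peak centred within 200 bp. These were the peak of 11.0 at KLF10 and 2 upstream peaks of KLF9, of 20.1 and 15.5, which were both among the 8.

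At the shared sites, the level was higher in ATF3-CPT than in ATF3-Ctrl at 4 of 4 promoter sites and 9 of 10 distal sites. Most shared sites over all gene windows were higher too, as their median log2 ratios, 0.43 at promoters and 1.01 at distal sites, were above 0. Of the 4 shared promoter sites, 2 were at least 2-fold higher in ATF3-CPT, both at KLF9 (all shared promoter sites, 24.3%), and 0 were at least 2-fold lower (1.16%). Of the 10 shared distal sites, 4 were at least 2-fold higher, 1 at KLF4, 1 at KLF6 and 2 at KLF7 (all shared distal sites, 50.6%), and 0 were at least 2-fold lower (1.67%). The interval of the ratio lay above 1 at 3 promoter and 5 distal sites and spanned 1 at the other 6. No share over all gene windows is given for these counts, so they cannot be read as particular to the KLF genes. The median log2 ratio was 1.01 at the promoter sites, against 0.43 over all 5856 shared promoter sites, and 0.83 at the distal sites, against 1.01 over all 13334 shared distal sites. Summed over the sites, the tag ratio was 1.85 (1.49 to 2.32) for the promoters and 1.64 (1.41 to 1.92) for the distal sites, so that their intervals overlapped. Over all gene windows the summed ratio was lower at promoters (1.41) than at distal sites (1.95).

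With 4 promoter sites in 3 genes, of which KLF9 has 2, these medians describe the KLF sites only. Over all 27104 shared sites the median log2 ratio was 0.85, and relative to this shift the median was 0.17 for the promoter sites and -0.01 for the distal sites of the KLF genes. On that scale the summed ratio was 1.03 for promoters and 0.914 for distal sites, with intervals of 0.827 to 1.29 and 0.783 to 1.07 that both span 1. This scaling moves every site alike, by the per-site median of all shared sites of either kind (1.80, where their summed ratio was 1.69). On it neither kind of site differed from that median beyond counting error. Set against their own kind over all gene windows, the unscaled promoter interval (1.49 to 2.32) lay above the summed ratio of 1.41. The distal interval (1.41 to 1.92) lay just below that of 1.95. Both contrasts depended on the setting. With a score of at least 10, the promoter interval was 1.395 to 2.267 and included 1.41. With the TSS of the canonical transcript, the distal interval was 1.43 to 1.976 and included 1.95. The ratios over all gene windows were those of the main setting. With so few sites and 1 library per condition, the differences from all gene windows were not tested.

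**Figure D3:**
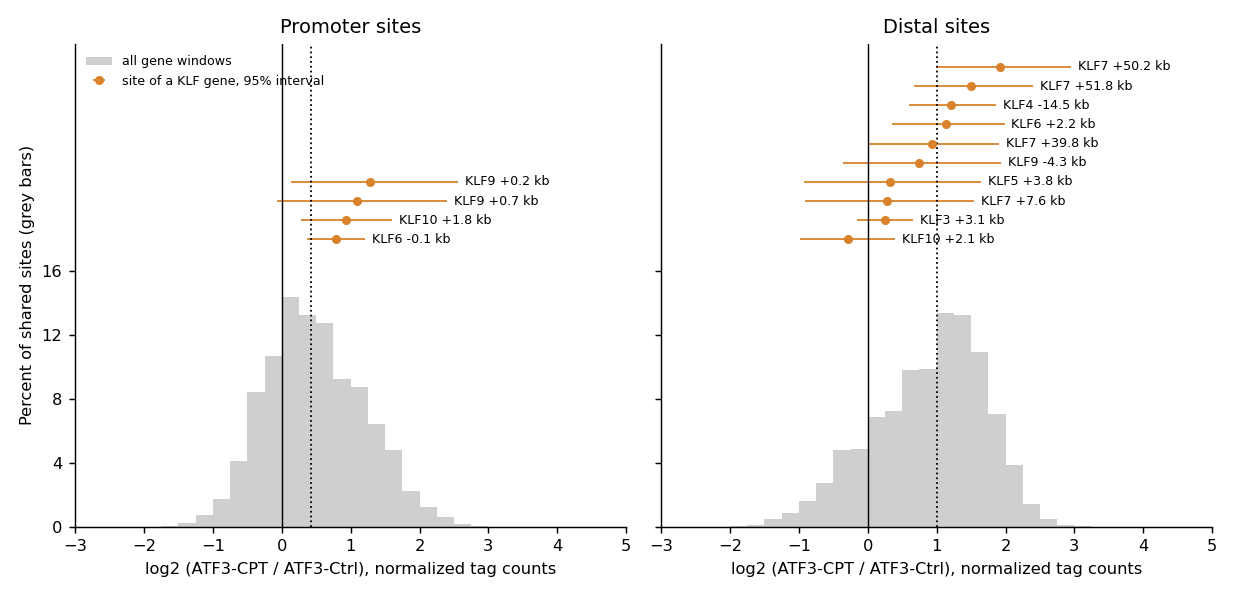
Log2 ratio of the normalized tag counts, ATF3-CPT over ATF3-Ctrl, on the x axis for shared promoter sites (left) and distal sites (right); grey bars give the percent of shared sites over all gene windows on the y axis and the dotted line their median (0.43 and 1.01), and points with 95% intervals are the sites of the KLF genes, stacked above the bars without a scale. The 4 promoter sites lie to the right of the median, and the 10 distal sites lie on both sides of it.

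The shared distal sites are described here by the AP-1 core, a split made after the values had been seen, which gives it no weight as a test. All 4 shared distal sites with an AP-1 core in the ATF3-CPT peak were at least 2-fold higher after CPT, with ratios from 2.20 to 3.77. Of the 6 without one, 0 reached 2-fold, and their ratios ran from 0.816 to 1.90. The count depends on the fold, as 2 of these 6 were at least 1.5-fold higher, and the intervals of the lowest ratio with a core (1.28 to 3.96) and the highest without one (1.01 to 3.75) overlapped. Over all gene windows, 68.3% of the 6265 shared distal sites with an AP-1 core were at least 2-fold higher, with a median ratio of 2.43, and 34.9% of the 7069 without one, with a median ratio of 1.52. At the promoters the order was otherwise, as the 2 sites of KLF9 with the largest ratios held no AP-1 core and the site of KLF10 that held one had a ratio of 1.90.

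Genes of the KLF group were compared with all protein-coding genes for the presence of a peak. The shares of KLF genes with a promoter or a distal peak, given above, were computed from the 5′ end of the gene. With the TSS of the canonical transcript, a promoter peak was present at 6 KLF genes before CPT (all genes, 36.6%) and at 7 after it (51.3%), KLF5 and KLF7 among them in both libraries. KLF2 and KLF3 were without one before CPT, and KLF3 after it. The windows of the KLF genes held a median of 2.5 peaks before and 3 after CPT, against 1 and 2 over all genes. Window length differed from 23.9 kb for KLF2 to 119.7 kb for KLF7, and its part in these counts was not tested.

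The other 18 genes of the KLF and SP families gave a comparison within the family. A promoter peak was present at 8 of them before and at 10 after CPT (all genes, 35.7% and 50.2%). A distal peak was present at 7 before and 9 after CPT (all genes, 49.4% and 69.5%). KLF8 and KLF17 had no listed peak in either library. Promoter peaks in both libraries were found at 7 of these genes, with the highest peak of KLF11 at 16.2 before and 63.4 after CPT. For KLF13 it was 10.8 and 9.1, for SP1 15.4 and 12.9, for SP2 7.0 and 8.4, for SP4 7.7 and 14.2, for SP5 12.4 and 5.8 and for SP8 20.1 and 25.9. The highest promoter level of the 8 members, at KLF6, was above each of these in both libraries. For distal peaks this did not hold after CPT, where the highest level was 86.0 at SP6, a gene singled out after the values were seen, against 80.9 at KLF3.

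**Figure D4:**
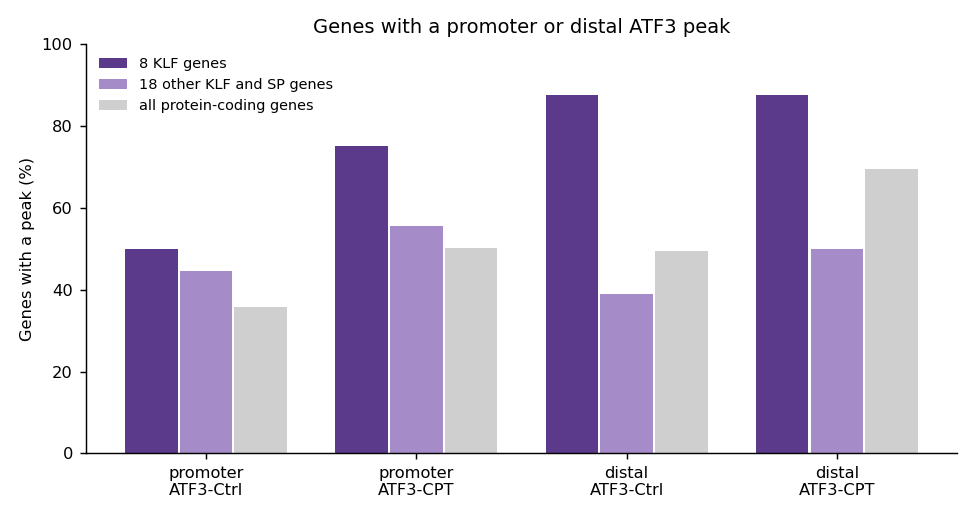
Percent of genes (y axis) with a promoter or distal ATF3 peak in ATF3-Ctrl and ATF3-CPT, for the 8 KLF genes, the 18 other KLF and SP genes and all protein-coding genes. The bars of the 8 KLF genes stand for 4, 6, 7 and 7 genes and are above the bars of all genes in each set.

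The control libraries held no peak in the KLF windows, and their depth limits what this shows. ATF3-KO had a depth like that of ATF3-Ctrl, and its limit for a peak, 11 tags, corresponded to a level of 8.58. The limit of 8.58 was exceeded by 15 of the 21 ATF3-Ctrl peaks and 25 of the 31 ATF3-CPT peaks of the KLF genes, none of which overlapped an ATF3-KO peak. The ATF3-KO library received DMSO, and ATF3-KO cells after CPT were not analysed here. The nearest ATF3-KO peak to a TSS was 217.8 kb away, at KLF2. For p53-CPT the score limit of 7 tags corresponded to 22.1, and the lowest level of a listed peak was 18.9. Of the 31 ATF3-CPT peaks, 9 were above 22.1. As the antibody and the peak width (318 bp in p53-CPT) differ, this does not show whether p53 could have been listed there. p53 binding below the listed range was not detectable at this depth.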

How the data were processed

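ChIP-seq peak lists of 5 libraries were analysed, with 1 library per condition and no replicates, so that no test between conditions was made. Reads were aligned by the authors (BWA 0.6.1, hg19), who then ran findPeaks of HOMER 4.1 on each library alone, and the commands in the file headers name no input control. The signal deposited by the authors, the normalized tag count, is scaled to 10000000 tags per library. The deposited findPeaks score counts tags with at most 1 tag per position. A local fold enrichment (ratio) with its p-value, a clonal fold change and a focus ratio (a fraction) were also deposited by the authors and were used in no result here. Per the file headers, peaks passed limits of 0.001 on the false discovery rate, 1e-04 on the local Poisson p-value and 4 on the fold over the surrounding 10 kb. Their limit of 9 tags was 6.95 in ATF3-Ctrl and 5.82 in ATF3-CPT on the normalized scale, and 3 tags were worth 2.32 and 1.94. The normalized tag count of a listed peak can lie below that limit, as the limit applies to the score.

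The KLF genes and the lists were chosen with earlier results of these data known. Genes were those of GENCODE release 44 on GRCh37, the build of hg19, and the TSS was the 5′ end of the gene. The named genes were all 8 members with their ATF3 sites, and of the other KLF and SP genes those with a promoter peak in both ATF3 libraries or with none. Peaks of the ATF3 libraries with at least 1 bp in common were 1 shared site. Tags were recovered from the normalized tag counts, all of which were whole tags within the rounding of 0.05. The ratio of normalized tag counts has a conditional exact (Clopper-Pearson) 95% interval on these tags, and was called at 2-fold. The background was the same measure over the windows of all protein-coding genes. Scripts used Python 3.11.15, pandas 2.3.3, scipy 1.17.1 and pyfaidx 0.9.0.4, and were tested on simulated data. The alternatives varied the window, promoter width, TSS, score, list length, overlap, scaling, fold and core search.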

Additional observations from a re-analysis of the deposited data

How the results depend on the processing

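The results were recomputed under 20 settings, 1 of which, the TSS of the canonical transcript, was chosen after seeing the data. Of the 286 values that resulted, 247 were close to those reported, 38 moved and 1 reversed. With the nearest TSS of any transcript, promoter peaks numbered 13 in ATF3-Ctrl and 16 in ATF3-CPT, and distal peaks 8 and 15. With a score of at least 15, ATF3-Ctrl had 2 promoter and 6 distal peaks, 0 promoter and 1 distal site were listed only there, and 3 shared sites were at least 2-fold higher. With a score of at least 20 these were 2, 4, 0, 1 and 1, ATF3-CPT had 14 distal peaks, and the summed distal ratio was 1.32. With the ATF3-CPT list shortened to the length of the ATF3-Ctrl list, ATF3-CPT had 6 promoter peaks (7 in ATF3-Ctrl) and 14 distal peaks (14 in ATF3-Ctrl), and 2 promoter and 6 distal sites were listed only in it. With windows from 50 kb upstream, ATF3-CPT had 38 distal peaks, 22 of them without an ATF3-Ctrl peak, 19 peaks held an ATF/CRE or AP-1 core (10 as reported), and the windows held 4 p53-CPT and 3 p53-KO peaks. With 1 mismatch in the core, 26 peaks held one. When peak centres within 200 bp counted as shared, 2 distal sites were listed only in ATF3-Ctrl. With the median ratio of all shared sites set to 1, the summed ratio was 1.03 at promoters and 0.914 at distal sites (reversed, interval 0.783 to 1.07), 1 site was at least 2-fold higher (KLF7) and 1 at least 2-fold lower (KLF10). At 1.5-fold, 10 shared sites were higher. Fewer peaks under a higher score or a shorter list follow from the setting itself, and the cause of the other shifts was not tested. No paired analysis was possible because no result comes from a test and each condition has 1 library. With 1 library per condition, differences between cultures could not be assessed, and the p53 libraries were too shallow to list peaks of low level.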

Other observations

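Outside the windows, several KLF genes had ATF3 peaks as high as those inside them. KLF2, which had a single low peak in its window, had a peak 1.9 kb downstream of its end with 49.4 tags per 10000000 in ATF3-Ctrl and 117.7 in ATF3-CPT, the latter above the peak at the KLF6 promoter. A peak 22.6 kb upstream of its TSS had 9.3 and 39.5. For KLF6, a peak 25.1 kb upstream had 44.8 before and 104.8 after CPT, and a peak 26.1 kb upstream had 13.1 and 34.9. KLF4 had a peak 4.2 kb downstream of its end with 9.3 and 27.2, and KLF5 had one 3.9 kb downstream with 9.3 and 29.8. These peaks were not assigned to a gene by any measure other than distance.

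Peaks of the p53 antibody, in p53-CPT or in the p53-KO cells, were listed between 20 and 50 kb upstream of 4 KLF genes. Upstream of KLF5, at -21.0 kb, a p53-CPT peak of 18.9 (interval 6.95 to 41.2, from 6 tags) had no counterpart in p53-KO, held 2 matches to the p53 motif and overlapped no ATF3-CPT peak. Upstream of KLF6, at -41.7 kb, a p53-CPT peak of 25.2 (interval 10.9 to 49.7) also had no counterpart in p53-KO, and held 0 matches. In p53-KO the score limit of 6 tags corresponded to 30.2, and the lowest level of a listed peak was 25.2. The level at KLF5 was below this range and that at KLF6 was at its lower end. Their lack of a counterpart in p53-KO therefore carries no weight. Upstream of KLF2, p53-CPT peaks of 18.9 at -38.0 kb and 63.1 at -27.5 kb had p53-KO counterparts of 55.4 and 100.8. A p53-KO peak of 45.3 at -45.3 kb from KLF10 had none in p53-CPT. As the libraries differ in genotype and treatment and have low depth, the presence of a peak in 1 of them was not tested.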
